A study of Mus musculus with 19 samples.

Results

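Of 10 RNA-seq libraries from the left prelimbic cortex of mice that had no c-MSST, 6 carried Zic1 above 30 CPM (the count of a gene per 1e6 counts of its library) and 4 carried it at or below 30 CPM. These Zic1-high and Zic1-low libraries, from a series of 19 libraries, are set against each other below, with the genes that moved with Zic1 as the object. The SCZ group had MK-801 (an NMDA receptor antagonist) at 0.2 mg/kg by daily intraperitoneal injection for 2 weeks, and the Control group had saline on the same schedule. In the SCZ+c-MSST and Control+c-MSST groups, a single dose of ferumoxytol, an iron oxide nanoparticle, was delivered to the same cortex by stereotactic surgery. Those mice then moved freely in a pulsed magnetic field. Tissue of all 19 libraries is recorded as taken on day 3 after surgery. The labels do not say whether mice without c-MSST had surgery, and they give no strain, sex, age or batch, nor whether a library pools animals. Nothing in them says outright that each library is a separate mouse, so p-values measure the spread between libraries.

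The Zic1-high libraries were SCZ replicates 2, 3 and 5 and Control replicates 2, 4 and 5. The Zic1-low libraries were SCZ replicate 1 and Control replicates 1, 3 and 7. MK-801 was thus given in 3 of the 6 Zic1-high libraries and in 1 of the 4 Zic1-low libraries. Because a measured level made the classes, the difference in any gene between them is given as a description. A model was fitted to that contrast too, but its calls serve only to order and count genes, and no p-value of a single gene is given from it. The comparisons read as tests are those in the 9 libraries with c-MSST, which the split did not use, and SCZ against Control, which the labels define.

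Zic genes encode zinc-finger transcription factors of the developing dorsal and medial nervous system. In the adult mouse forebrain, Zic1 is known from the septum, the medial wall and the meninges, and it is sparse in neurons of the neocortex. The prelimbic cortex lies on the medial wall of the frontal lobe, in front of and above the septum and beside the anterior striatum. Lists of marker genes for these neighbours, for the ventricle wall and for cortical cell types were therefore read beside Zic1. In bulk tissue, a lower level of a marker cannot be split into fewer cells of its type and less RNA per cell.

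The genes with the clearest difference between the classes were Zic1 itself, its head-to-head neighbour Zic4, Prkcd and Col6a3. Zic1 lies at chr9:91358058-91365810 on the minus strand of GRCm38 (mm10) and Zic4 at chr9:91362413-91389348 on the plus strand. The 2 gene spans overlap by 3398 bp, of which 60 bp are exonic in both genes. The sources used here do not give a strand setting for the counting, so reads from that overlap may not be told apart. Prkcd lies at chr14:30595354-30626210 and Col6a3 at chr1:90765923-90843971, both on the minus strand. The 250 bases in front of the RefSeq transcription start of each gene (GRCm38.p6) are shown because these 4 genes moved together, with a CCAAT or TATAAA on either strand in capitals.
Zic1, chr9:91365769-91366018, minus strand: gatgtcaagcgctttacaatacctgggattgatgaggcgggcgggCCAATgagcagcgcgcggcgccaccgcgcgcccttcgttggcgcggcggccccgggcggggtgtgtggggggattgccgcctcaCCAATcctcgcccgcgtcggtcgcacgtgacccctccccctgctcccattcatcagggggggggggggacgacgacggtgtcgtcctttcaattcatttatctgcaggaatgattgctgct
Zic4, chr9:91368722-91368971, plus strand: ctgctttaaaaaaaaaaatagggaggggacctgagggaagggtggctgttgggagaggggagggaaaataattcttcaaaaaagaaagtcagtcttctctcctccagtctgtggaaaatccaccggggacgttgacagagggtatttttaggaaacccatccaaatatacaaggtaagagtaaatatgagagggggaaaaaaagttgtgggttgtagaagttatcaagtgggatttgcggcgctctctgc
Prkcd, first of 2 RefSeq starts, chr14:30626209-30626458, minus strand: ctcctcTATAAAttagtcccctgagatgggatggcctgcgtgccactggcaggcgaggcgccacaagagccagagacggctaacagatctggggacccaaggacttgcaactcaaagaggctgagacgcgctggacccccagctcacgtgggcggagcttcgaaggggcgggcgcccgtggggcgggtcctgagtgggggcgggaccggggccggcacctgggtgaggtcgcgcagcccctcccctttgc
Col6a3, chr1:90843972-90844221, minus strand: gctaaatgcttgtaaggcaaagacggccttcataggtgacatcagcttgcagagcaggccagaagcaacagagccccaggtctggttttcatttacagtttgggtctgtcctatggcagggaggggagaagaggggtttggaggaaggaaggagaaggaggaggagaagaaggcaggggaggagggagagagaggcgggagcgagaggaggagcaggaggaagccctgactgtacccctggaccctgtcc

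The Zic1 window had a GC content of 66.0% with 27 CpG dinucleotides, and it held CCAAT 2 times. The Zic4 window, whose start lies 3204 bp from that of Zic1, had a GC content of 44.4% with 4 CpG and neither motif. The Prkcd window had a GC content of 67.6% with 18 CpG and held TATAAA 1 time, and the Col6a3 window had 57.2% with 3 CpG and neither motif. Over the 32851 RefSeq windows of the same length, the median GC content was 52.4% and the median CpG number 6, with CCAAT in 33.8% and TATAAA in 12.4%. No window of the 4 genes held CCTGCTG, core letters of the sequence that Zic proteins bind, on either strand. Those letters stood in 8.44% of all windows.

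Zic1 had 42.9, 42.3 and 53.9 CPM in SCZ replicates 2, 3 and 5 and 34.8, 37.6 and 37.7 CPM in Control replicates 2, 4 and 5. In the Zic1-low libraries it had 13.5 CPM in SCZ replicate 1 and 11.0, 12.0 and 9.95 CPM in Control replicates 1, 3 and 7. The class averages were 41.5 ± 6.80 CPM in Zic1-high (SD, n = 6) and 11.6 ± 1.50 CPM in Zic1-low (SD, n = 4). No library without c-MSST lay between 13.5 and 34.8 CPM, so the nearest values on either side of the threshold were those of Control replicate 2 above it and SCZ replicate 1 below it. In the 9 libraries with c-MSST, Zic1 ran from 9.50 to 16.9 CPM, and 0 of 9 passed 30 CPM. Library totals ran from 56438232 to 82416746 counts in Zic1-high, from 50140626 to 72576638 in Zic1-low and from 60577337 to 75090222 with c-MSST. Control replicates 2 and 3, 1 from each class, stood apart from the other 8 on the first principal component of the 10 libraries, which held 22.8% of the variance.

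Prkcd, Zic4 and Col6a3 were higher in all 6 Zic1-high libraries than in any Zic1-low library. Prkcd encodes protein kinase C delta, a signalling kinase known as a marker of thalamic and some amygdalar neurons. It had 20.8, 26.3 and 26.9 CPM in SCZ replicates 2, 3 and 5 and 34.6, 23.9 and 24.8 CPM in Control replicates 2, 4 and 5. In Zic1-low it had 8.75 CPM in SCZ replicate 1 and 8.58, 10.5 and 7.35 CPM in Control replicates 1, 3 and 7. The lowest Zic1-high library, SCZ replicate 2, was thus well clear of the highest Zic1-low library, Control replicate 3. The fitted log2 fold change with the drug group in the model was 1.58 (SE 0.14). The 9 libraries with c-MSST lay at 7.92 to 12.2 CPM, all below every Zic1-high library.

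Zic4, the partner of Zic1 in the cerebellum and forebrain midline, had 5.57, 6.42 and 6.09 CPM in SCZ replicates 2, 3 and 5 and 6.51, 4.80 and 7.25 CPM in Control replicates 2, 4 and 5. Its 4 Zic1-low values ran from 1.60 CPM in Control replicate 1 to 2.52 CPM in Control replicate 3. The log2 fold change was 1.59 (SE 0.18), close to that of Zic1, and the c-MSST libraries had 1.34 to 2.42 CPM. Col6a3, a chain of the extracellular matrix protein collagen VI, had 12.0, 15.9 and 16.5 CPM in the SCZ and 20.9, 13.2 and 13.3 CPM in the Control libraries of Zic1-high. In Zic1-low it had 5.08 CPM in SCZ replicate 1 and 5.54, 7.56 and 4.96 CPM in Control replicates 1, 3 and 7, a log2 fold change of 1.42 (SE 0.18). Control replicate 2 was the highest library for both Prkcd and Col6a3, and Control replicate 3 was the highest Zic1-low library for all 3 genes. Per length, the mean levels in Zic1-high were 5.84 FPKM for Zic1, 4.78 for Prkcd, 0.936 for Col6a3 and 0.823 for Zic4. In Zic1-low they were 1.57, 1.54, 0.339 and 0.258 FPKM in the same gene order.

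**Figure D1:**
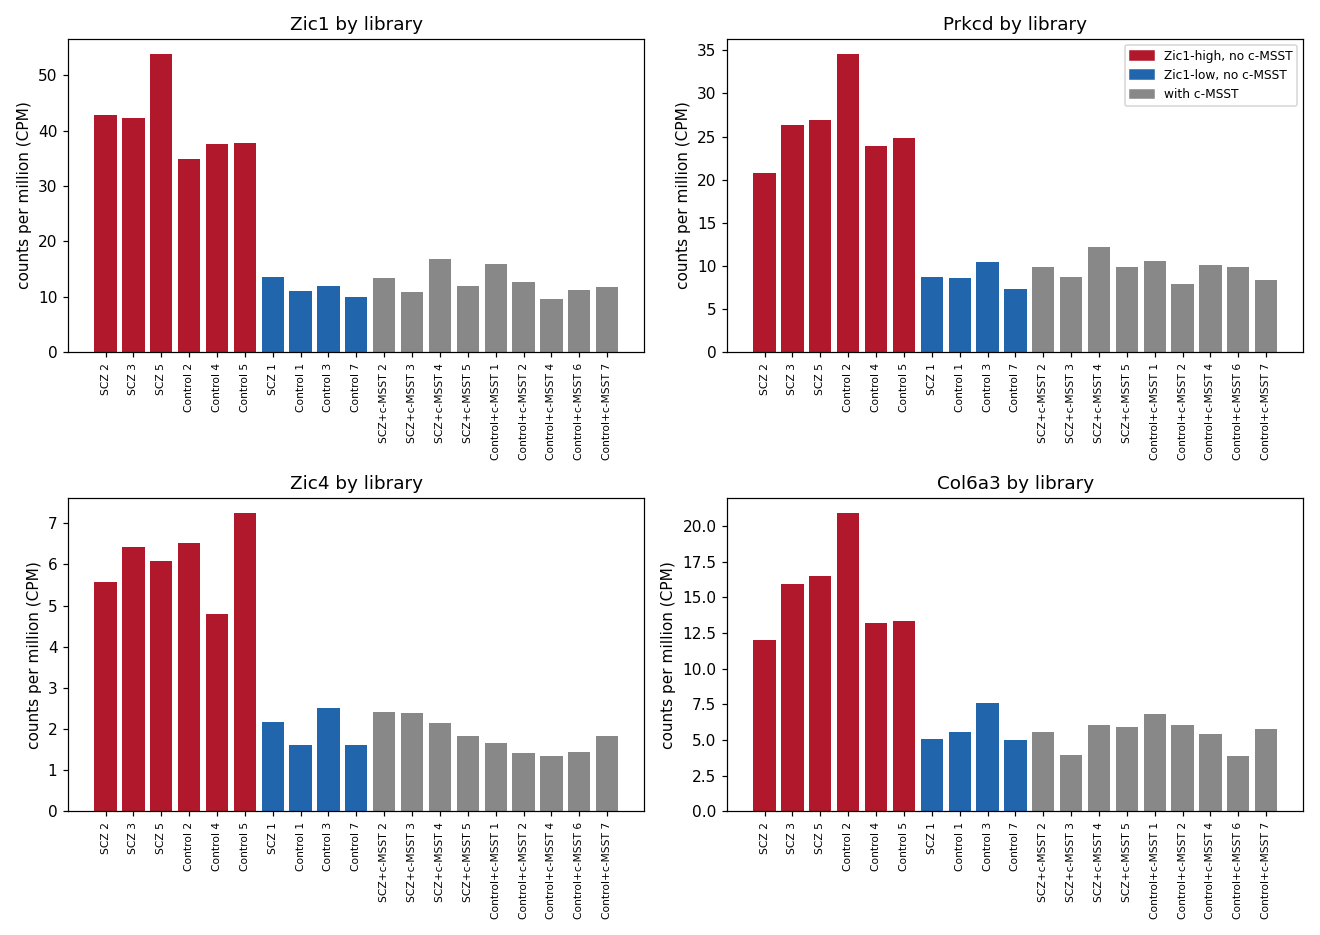
Level of Zic1, Prkcd, Zic4 and Col6a3 in each of the 19 libraries, in CPM (vertical axis, from 0), with Zic1-high libraries in red, Zic1-low in blue and libraries with c-MSST in grey. In each panel every red bar stands above every blue and grey bar.

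These 3 genes were the only ones past an adjusted p of 0.05 among 16059 tested genes other than Zic1 (edgeR's quasi-likelihood test, 0.0187% higher, 0% lower), and nothing is read from that share because Zic1 levels formed the classes. At an unadjusted p under 0.05, 443 genes were higher and 356 lower, and DESeq2 called 41 higher and 11 lower. Every Zic1-high library exceeded every Zic1-low library in 172 genes (1.07%), and every one was below in 50 genes (0.311%). The median log2 fold change over all tested genes was 0.00494. Leaving out Control replicates 2 and 3, whose Ttr levels exceeded 100 CPM, gave 7 genes. Prkcd, Zic4, Col6a3, Prdm12, Cdc27 and Rnf220 were higher and Cnot6l was lower. Leaving out 1 library at a time gave 5 genes without Control replicate 3 and 1 gene, Prkcd, without SCZ replicate 1, 2, 3 or 5 or Control replicate 2 or 7.

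The 12 genes higher in Zic1-high that the naming rule took also included transcription factors and membrane proteins. Ebf3, a helix-loop-helix transcription factor, was at 0.957 to 2.43 CPM in Zic1-high and at 0.179 to 0.384 CPM in Zic1-low, a log2 fold change of 2.46 (SE 0.38). Zic2, from the same family as Zic1 and Zic4, was at 13.2 to 19.6 CPM in Zic1-high and at 6.38 to 11.0 CPM in Zic1-low, a log2 fold change of 0.83 (SE 0.15). Ano1, a calcium-activated chloride channel, was at 7.92 to 11.3 CPM in Zic1-high and at 3.67 to 6.08 CPM in Zic1-low, a log2 fold change of 0.97 (SE 0.18). None of these ranges overlapped. The other 6 were Nudt12, a hydrolase of NADH, Htd2, an enzyme of mitochondrial fatty acid synthesis, Nxn (nucleoredoxin), Zfp771, a zinc-finger protein, Cdhr3, a cadherin-related protein, and Tnfrsf18, a TNF receptor family member. Their log2 fold changes were between 0.48 for Zfp771 and 6.18 for Htd2, and their ranges did not overlap either. Htd2 varied like a switch, from 0.145 to 10.9 CPM in Zic1-high and from 0.0154 to 0.0912 CPM in Zic1-low, with 0.0146 to 10.6 CPM in the libraries with c-MSST. Within the SCZ+c-MSST group alone it ran from 1 to 686 counts. Its classes were held apart by 9 counts in Control replicate 5 against 6 counts in Control replicate 7, so its log2 fold change is uncertain.

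In 8 of these 12 genes (66.7%), all 9 libraries with c-MSST were below every Zic1-high library. The exceptions were Nudt12, Htd2, Zfp771 and Tnfrsf18. The same held for 34 of the 172 separated genes (19.8%) and for 158 of the 16059 tested genes (0.984%). Nothing is read from the larger shares, because both sets of genes were chosen for being high in the Zic1-high libraries. Genes picked from among the 34 after their values were seen were Prdm12, Eomes, Ret, Ednrb and Prdm16. Prdm12, a transcription regulator of sensory neurons, had 1.51 to 3.23 CPM in Zic1-high, 0 to 0.441 CPM in Zic1-low and 0.0681 to 1.32 CPM with c-MSST. Ret, a receptor for GDNF family ligands, averaged 8.71 CPM in Zic1-high and 5.13 CPM in Zic1-low. Ednrb, an endothelin receptor, averaged 51.7 CPM in Zic1-high and 39.7 CPM in Zic1-low.

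Among the 12 genes lower in Zic1-high, Acot11, an acyl-CoA thioesterase, was at 12.7 to 21.1 CPM in Zic1-high and at 26.1 to 28.1 CPM in Zic1-low, a log2 fold change of -0.66 (SE 0.11). Cnot6l, a deadenylase of the CCR4-NOT complex, was at 30.2 to 36.7 CPM in Zic1-high, and in Zic1-low it was at 78.4 CPM in SCZ replicate 1 and at 79.7, 37.5 and 85.7 CPM in Control replicates 1, 3 and 7. Control replicate 3 was thus close to the Zic1-high libraries for Cnot6l, which had a log2 fold change of -1.11 (SE 0.21). Stx3 (a syntaxin), Mcf2 (a guanine nucleotide exchange factor) and Psg16 also did not overlap between the classes, at log2 fold changes of -0.30, -0.41 and -0.41. The remaining 7 (Pde7a, Capn11, Cramp1l, Adgra1, Fbxo21, Slc19a2 and Eif3j1) overlapped, at log2 fold changes between -0.31 and -3.17. Eif3j1 and Psg16 have near-identical relatives in the genome, so their counts are uncertain.

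Of the 12 genes listed for the Zic family and lateral septum, 11 had a positive log2 fold change in Zic1-high, 4 did not overlap between the classes and the median was 1.08. Over all tested genes, 51.4% had a positive log2 fold change and 1.07% were separated upward, and nothing is read from these counts because the split used the same libraries. Zic2, Zic4 and Avpr1a were among those 4. Avpr1a, the vasopressin receptor known from the lateral septum, had 0.644 to 1.66 CPM in Zic1-high and 0.239 to 0.592 CPM in Zic1-low. Zic5, which neighbours Zic2 on chromosome 14, had 1.80 to 3.19 CPM in Zic1-high and 1.22 to 1.97 CPM in Zic1-low, an overlap of 1 library on each side.

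The receptors and peptides of the list were less even. Glp1r, the receptor for glucagon-like peptide 1, had 1.48 to 3.62 CPM in Zic1-high, and in Zic1-low it was at 0.276 CPM in SCZ replicate 1, at 1.78 CPM in Control replicate 3 and at 0 counts in Control replicates 1 and 7. A count of 0 allows up to 3 counts, which is 0.0598 CPM in Control replicate 1 and 0.0456 CPM in Control replicate 7, for counting error only. Nts, which encodes neurotensin, had 2.60 to 8.20 CPM in Zic1-high and 1.89, 0.459, 4.70 and 0.304 CPM in SCZ replicate 1 and Control replicates 1, 3 and 7. Crhr2, the receptor for urocortins, had 5.27 CPM in Control replicate 2 and 1.24 to 2.63 CPM in the other Zic1-high libraries, against 0.896 to 2.49 CPM in Zic1-low. Trpc4, a cation channel of the lateral septum, had 85.6 CPM in Control replicate 2 and 38.9 to 46.5 CPM in the other Zic1-high libraries. Control replicate 3 had 80.4 CPM of Trpc4 and the other Zic1-low libraries had 28.2 to 34.6 CPM. Oxtr, the oxytocin receptor, had log2 fold change 0.22 (SE 0.30), Mc3r, a melanocortin receptor, 1.24 (SE 0.76), and Esr1, an estrogen receptor and the only member below 0, -0.14 (SE 0.37). The summed level of the 12 genes was 98.0 to 141 CPM in Zic1-high, 59.7 CPM in SCZ replicate 1 and 61.5, 132 and 63.4 CPM in Control replicates 1, 3 and 7, and 55.1 to 78.9 CPM with c-MSST.

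**Figure D2:**
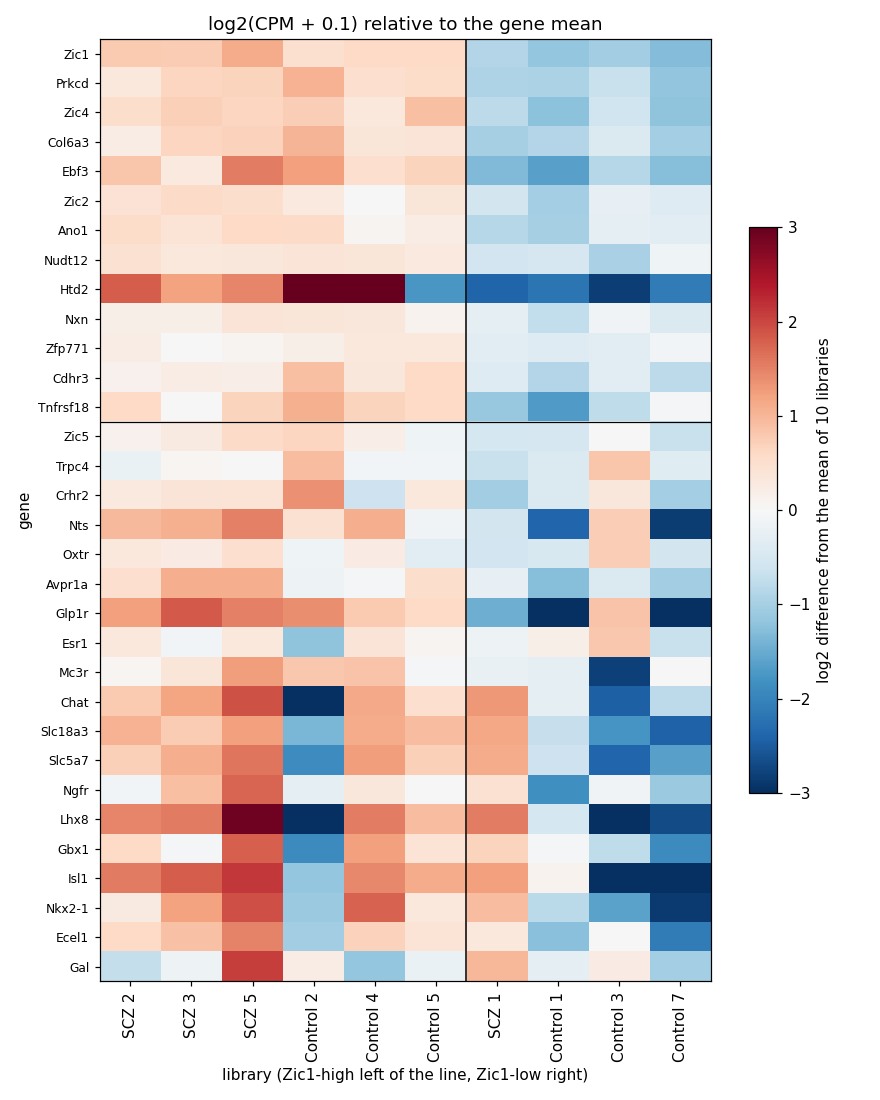
Level of Zic1, of the 12 named genes higher in Zic1-high and, below the horizontal line, of other septal and medial septal genes in the 10 libraries without c-MSST, as log2(CPM + 0.1) minus the mean of the gene, with colours capped at a difference of 3 either way. Above the horizontal line, Zic1-high libraries (left of the vertical line) are the redder ones, and below it most medial septal genes are blue in Control replicate 2 and red in SCZ replicate 1.

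The genes of the medial septum and diagonal band, which hold the cholinergic and other projection neurons of the septohippocampal pathway, did not separate the classes. Of 11 such genes, 10 had a positive log2 fold change in Zic1-high (median 1.17) and none was free of overlap. The share of positive genes over all tested genes was 51.4%, and nothing is read from the count because the split used the same libraries. Chat, the acetylcholine-synthesising enzyme, had 4.31, 5.67 and 9.48 CPM in SCZ replicates 2, 3 and 5 and 0.165, 5.55 and 3.49 CPM in Control replicates 2, 4 and 5. In Zic1-low it had 6.17 CPM in SCZ replicate 1 and 1.97, 0.369 and 1.37 CPM in Control replicates 1, 3 and 7. Lhx8, a transcription factor of basal forebrain cholinergic neurons, had 7.67 CPM in SCZ replicate 5, 0 counts in Control replicate 2 and 1.88 to 2.95 CPM in the other 4 Zic1-high libraries. In Zic1-low, Lhx8 had 2.91 CPM in SCZ replicate 1 and 0.618, 0 and 0.0608 CPM in Control replicates 1, 3 and 7. Control replicate 2, which is Zic1-high, was thus at the level of the low libraries, and SCZ replicate 1, which is Zic1-low, at that of the high ones. The same 2 libraries crossed over for Slc5a7, the choline transporter, at 1.36 CPM in Control replicate 2 and 11.7 CPM in SCZ replicate 1. The summed level of the list was 10.4 to 92.2 CPM in Zic1-high and 6.81 to 49.9 CPM in Zic1-low, with 3.90 to 44.6 CPM with c-MSST.

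Striatal projection neuron genes crossed over in the same way. With 51.4% of all tested genes positive in the libraries that made the split, nothing is read from the sign of these genes. All 14 had a positive log2 fold change (median 0.69) and none separated the classes. Their sum was 2665, 2596 and 3063 CPM in SCZ replicates 2, 3 and 5 and 462, 3050 and 2599 CPM in Control replicates 2, 4 and 5, against 3350 CPM in SCZ replicate 1 and 1588, 443 and 711 CPM in Control replicates 1, 3 and 7. Ppp1r1b, which encodes DARPP-32, had 52.5 CPM in Control replicate 2 and 550 CPM in SCZ replicate 1, while the other 5 Zic1-high libraries had 366 to 458 CPM. A fit with a striatal score added to the model called 4 genes.

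For the ventricle wall, all 8 ependymal genes had a positive log2 fold change (median 0.71), and none of the 8 separated the classes by itself. Their summed level was 17.6 to 27.8 CPM in Zic1-high, 6.72 to 16.5 CPM in Zic1-low and 4.68 to 12.9 CPM with c-MSST. The sums did not overlap between the classes, by a narrow gap. Over all tested genes, 51.4% were positive and 1.07% were separated upward. Nothing is read from these counts because the split used the same libraries. Foxj1, the regulator of motile cilia, had 5.73 to 9.58 CPM in Zic1-high and 3.56 to 5.92 CPM in Zic1-low, where Control replicate 1 lay above SCZ replicates 3 and 5. All 12 choroid plexus genes had a positive log2 fold change (median 2.02), but the sum was dominated by Control replicates 2 and 3. Ttr, the transthyretin of the choroid plexus, had 1620 CPM in Control replicate 2 and 154 CPM in Control replicate 3, and 7.80 CPM or less in each of the other 8 libraries. Without those 2 libraries, 9 of 12 choroid plexus genes had a positive log2 fold change (median 0.58), as did all 8 ependymal genes (median 0.56) and all 12 septal genes (median 0.93). Esr1 changed sign there, to 0.35. Clic6, a chloride channel protein on the choroid plexus list, was the only one of the 12 that did not overlap, at 7.40 to 35.9 CPM in Zic1-high and 0.776 to 6.82 CPM in Zic1-low. Control replicate 2 was the highest library for both Clic6 and Ttr, but the 2 genes parted elsewhere. SCZ replicate 5 had 14.2 CPM of Clic6 and 0.619 CPM of Ttr, and Control replicate 3 had 2.86 and 154 CPM. The part of ventricle wall and choroid plexus in the levels of Prkcd, Zic4 and Col6a3 was not tested.

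Genes of the subventricular zone and its neuroblasts had a median log2 fold change of 0.29, with 10 of 11 positive. Igfbpl1, found in newborn neurons and the highest of that list by log2 fold change (2.02), had 2.38 to 5.14 CPM in Zic1-high and 0.182 to 1.66 CPM in Zic1-low. Olfactory bulb and anterior olfactory genes were positive in 6 of 6 (median 0.80). Eomes, a T-box factor of olfactory and progenitor cells, did not overlap between the classes and was the highest of this list (2.1). Among all tested genes, 51.4% were positive and 1.07% were separated upward. Nothing is read from the counts of these 2 lists either, since the split used the same libraries. Indusium griseum and dentate genes were high in Control replicates 2 and 3 alone: Prox1 had 63.6 and 40.1 CPM there and 11.4 to 18.2 CPM in the other 8.

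**Figure D3:**
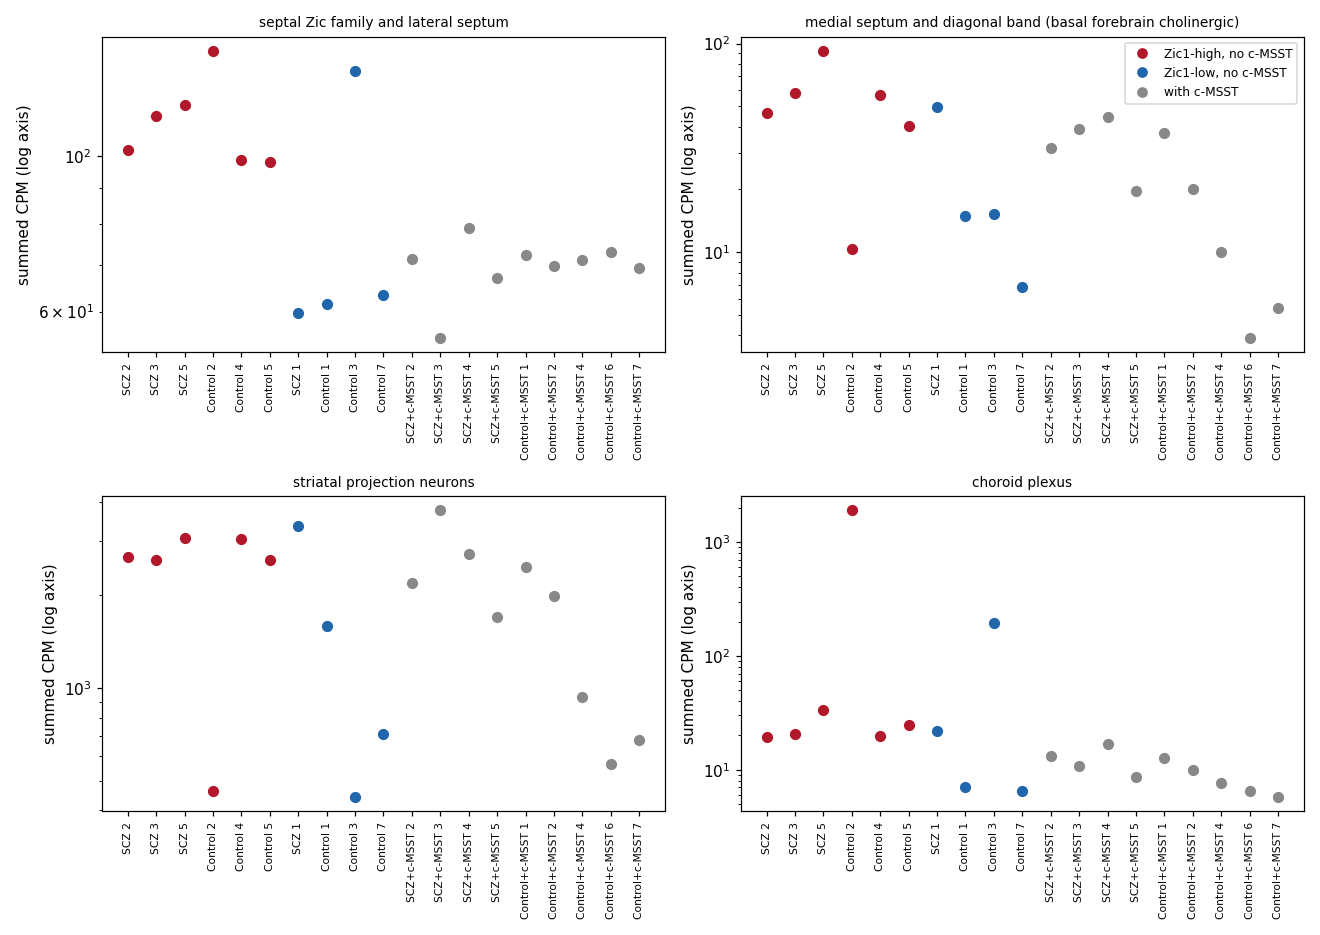
Summed level (CPM, log axis) of 4 marker lists in each of the 19 libraries, with Zic1-high libraries in red, Zic1-low in blue and libraries with c-MSST in grey. Septal genes are high in every red library and in Control replicate 3, while Control replicate 2 is low and SCZ replicate 1 high for the medial septal and striatal lists.

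Genes of cortical neurons were read in the same way, and no list was particular to the prelimbic area. Slc17a7, the vesicular glutamate transporter of cortical excitatory neurons, had 897 to 1060 CPM in Zic1-high and 1000 to 1220 CPM in Zic1-low, and Tbr1, a deep-layer transcription factor, 148 to 207 CPM in Zic1-high and 152 to 250 CPM in Zic1-low. Of 13 excitatory neuron genes, 3 had a positive log2 fold change in Zic1-high (median -0.12), and their sum was 5007 to 6549 CPM in Zic1-high and 5544 to 7230 CPM in Zic1-low. Cortical interneuron genes had 3 of 10 positive (median -0.13). In that list the log2 fold changes ran from -0.40 for Pvalb (parvalbumin) to 0.51 for Gad2, a GABA-synthesising enzyme. Gad2 was thus the extreme member, at 92.3 to 237 CPM in Zic1-high and 79.2 to 148 CPM in Zic1-low. It had 92.3 CPM in Control replicate 2 and 148 CPM in SCZ replicate 1, the libraries that crossed over for striatal genes. Leptomeningeal fibroblast genes had 4 of 16 positive (median -0.14). Their sum was 489 to 638 CPM in Zic1-high, 1157 CPM in Control replicate 3 and 512 to 546 CPM in the other Zic1-low libraries. Without Control replicates 2 and 3, 13 of these 16 genes had a positive log2 fold change (median 0.15), so the sign of this list rests on those libraries. Among thalamic genes, 2 of 6 were positive, and Prkcd was the only one among the 0.0187% of genes called higher. Slc17a6, the glutamate transporter of thalamic neurons, had 15.7 to 34.9 CPM in Zic1-high and 11.2 to 38.8 CPM in Zic1-low. Myelin genes had 13 of 14 positive (median 0.19), and astrocyte, microglial and endothelial lists had medians of -0.02, 0.05 and -0.01. Beside the sign counts of this paragraph, 51.4% of all tested genes were positive, and nothing is read from those counts.

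**Figure D4:**
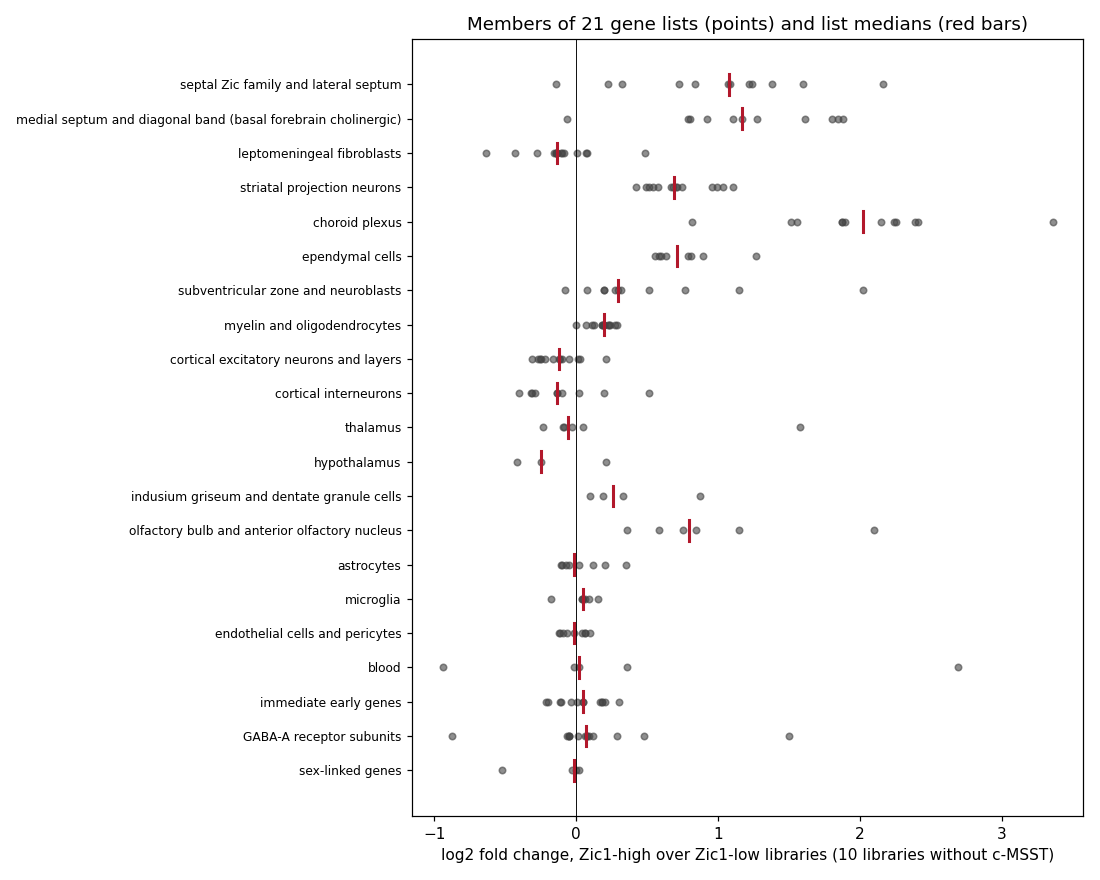
Log2 fold change of Zic1-high over Zic1-low for each tested member of 21 gene lists (grey points) with the list median (red bar), in the 10 libraries without c-MSST. The septal, medial septal, choroid plexus, ependymal, olfactory and striatal medians lie between 0.69 and 2.02, and the cortical neuron medians lie at -0.12 and -0.13.

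The libraries with c-MSST, in which the split played no part, allow a look at slopes on Zic1 within a narrower range. Zic1 spanned 9.50 to 16.9 CPM there, which reached above the Zic1-low libraries and stopped below the lowest Zic1-high library. The slopes therefore cannot show whether genes follow Zic1 across the difference between the classes. Of 15941 genes tested for a slope on log2 Zic1, none passed an adjusted p of 0.05 (edgeR's quasi-likelihood test, 0%), 1048 had an unadjusted p under 0.05, and DESeq2 called 82. Slopes, as the log2 change per doubling of Zic1 CPM, were 0.32 for Prkcd (SE 0.23, adjusted p = 0.852 by edgeR, 9 libraries), 0.15 for Zic4 (SE 0.38, adjusted p = 0.973 by edgeR) and 0.63 for Col6a3 (SE 0.31, adjusted p = 0.779 by edgeR). Single libraries moved the smaller slopes. That of Prkcd was 0.11 without SCZ+c-MSST replicate 4 and 0.58 without Control+c-MSST replicate 4. That of Zic4 was 0.02 without Control+c-MSST replicate 4 and 0.06 without Control+c-MSST replicate 1, 0.10 without SCZ+c-MSST replicate 5, 0.32 without SCZ+c-MSST replicate 4 and 0.33 without SCZ+c-MSST replicate 3. That of Col6a3 ran from 0.45 to 0.87. Of the septal list, 7 of 12 slopes were positive (median 0.30). Of the medial septal genes tested, 9 of 9 were (median 2.45), as were all 14 striatal genes (median 1.37), though no single gene passed. Ependymal slopes were 0 of 8 positive (median -0.76). Over all 15941 genes tested, 49.7% of slopes were positive. Members of a list were measured in the same 9 libraries, so these counts are not independent results. In simulated data for this fit, 51% of slopes of 1 and 87% of slopes of 2 were recovered.

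The SCZ against Control comparison shows what a term for the Zic1 class changes. Zic1 itself averaged 38.2 ± 17.3 CPM in SCZ (SD, n = 4) and 23.8 ± 14.1 CPM in Control (SD, n = 6), and its log2 fold change with no such term was 0.65 (SE 0.51, adjusted p = 0.674 by edgeR). With the term, 1 of 16060 genes passed (0.00623%), and without it 1 gene passed (0.00623%). In both fits it was Cops2, a subunit of the COP9 signalosome. Cops2 had 90.5, 97.3, 92.9 and 88.5 CPM in SCZ replicates 1, 2, 3 and 5 and 53.5 to 64.3 CPM in the 6 Control libraries. Its log2 fold change was 0.63 (SE 0.07, adjusted p = 0.0412 by edgeR) with the term and 0.62 (SE 0.06, adjusted p = 0.0148 by edgeR) without it. Leaving out any 1 of the 10 libraries ended the call, at adjusted p between 0.0613 and 0.274 by edgeR, while the log2 fold change stayed at 0.60 to 0.66.

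Since 3 of 4 SCZ and 3 of 6 Control libraries were Zic1-high, a lower drug coefficient with the term comes with the choice of genes that are higher in Zic1-high, and nothing is read from it. The drug log2 fold change of Zic4 was 0.02 with the term and 0.30 without it, that of Prkcd -0.14 with it and 0.15 without it, and that of Col6a3 -0.16 with it and 0.15 without it. The median over the septal list was 0.11 with the term and 0.33 without it. The medial septal list had 11 of 11 positive in both fits, with a median of 1.43 with the term and 1.303 without it. For striatal genes the median was 1.13 in both fits, with 14 of 14 positive. Immediate early genes, which report recent neuronal activity, had a median of -0.66 with the term and -0.73 without it, with 1 of 13 positive in both. Over all 16060 tested genes, 49.6% were positive with the term and 49.4% without it. Members of a list share the same libraries, so these list counts are not independent results. Arc, which encodes a synaptic protein, had 60.7, 83.6, 77.5 and 70.0 CPM in SCZ replicates 1, 2, 3 and 5, and 93.3 to 231 CPM in Control. Its log2 fold change was -1.21 with the term (SE 0.28, adjusted p = 0.603 by edgeR) and -1.16 without it (SE 0.26, adjusted p = 0.410 by edgeR). Gabre, which encodes the GABA-A receptor's epsilon subunit, had 0.244, 1.11 and 1.31 CPM in the SCZ libraries of Zic1-high and 0.262 CPM in SCZ replicate 1, against 0 to 0.329 CPM in Control. Its drug log2 fold change was 1.85 with the term (SE 0.69, adjusted p = 0.603 by edgeR) and 2.21 without it (SE 0.73, adjusted p = 0.426 by edgeR).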

How the data were processed

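RNA from the left prelimbic cortex was sequenced in 19 libraries from 4 groups, taken from the sample titles. Estimated counts and FPKM values (reads per length and depth) were deposited by the authors, each with a column for every library. The submitters' processing notes name StringTie 1.3.5, STAR 2.7.7a, fastp 0.19.5 and Picard 2.18.29 with the build mm10. Annotation and strand setting: not given in the sources used here. Deposited counts were whole numbers. Of 20938 genes, 2327 had no count in any library.

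Libraries without c-MSST were split at 30 CPM of Zic1. The members and gene lists were chosen with earlier results of these data known. Genes were kept by filterByExpr, normalized by TMM and tested by edgeR 4.0.16 (glmQLFit, robust, R 4.3.3) with the drug group, or the Zic1 class, as the other term. Calls were made at a Benjamini-Hochberg adjusted p of 0.05 over all tested genes. DESeq2 1.42.0 and limma 3.58.1 (voom, and log2 of FPKM plus 1 or 0.1) were alternatives, as were other size factors, other filters, single libraries left out and the replicate block. The script was tested on simulated data, where 79% of log2 changes of 1 and 98% of changes of 2 between the Zic1 classes were recovered.

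Named were Zic1, the septal and medial septal lists, the 12 genes of each direction with the smallest p and at least 1 CPM on average (predicted names left out), any called slopes and the 3 most abundant genes of each other list. Cops2, Gabre, Gabrq, Prdm12, Igfbpl1, Sp8, Eomes, Ret, Ednrb, Prdm16, Cdc27 and Rnf220 were chosen after their values were seen. Some genes that the rule took are left out of the text. Gene positions are from GENCODE M21 (GRCm38) and promoter windows from RefSeq (GRCm38.p6). Intervals and limits for counts of 0 cover counting error only.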

Additional observations from a re-analysis of the deposited data

Results flagged for a closer look

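In groups of 4 to 6 libraries, 44 of 424 tests for a single library far from the rest of its labelled group, by the Dixon criterion, passed. Chance alone passes about 1 in 20, but the 2 shares cannot be compared, since many of the genes were chosen for a difference between the Zic1 classes and SCZ replicate 1 is the only Zic1-low library of its group. Values are in CPM, and the range of the other libraries of the group follows each.

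SCZ replicate 1, the Zic1-low library of its group, stood apart for Zic2 at 8.91 (17.8 to 19.6), Cnot6l at 78.4 (33.2 to 36.7), Pde7a at 25.7 (11.5 to 12.7) and Capn11 at 6.89 (0.374 to 0.580). It also did for Fbxo21 at 137 (102 to 106), Eif3j1 at 23.1 (2.01 to 2.36), Crhr2 at 0.896 (2.43 to 2.63), Ttr at 7.80 (0.351 to 0.619) and Reln at 239 (212 to 213). SCZ replicate 5 was apart for Lhx8 at 7.67 (2.76 to 2.95), Avp at 3.59 (0 to 0.110), Tbr1 at 151 (182 to 187) and Gabrb2 at 323 (348 to 352), and SCZ replicate 3 for Agrp at 0.374 (0.855 to 0.910).

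Control replicate 2, which is Zic1-high, stood apart for Ttr at 1620 (0.279 to 154), Kl at 88.8 (2.17 to 15.9), Clic6 at 35.9 (0.776 to 9.98), Dsp at 75.5 (0.850 to 26.3), Crhr2 at 5.27 (0.912 to 2.49) and Gabrb2 at 301 (336 to 353). Control replicate 3 was apart for Ptgds at 836 (353 to 421) and Vtn at 57.6 (36.5 to 43.3), Control replicate 4 for Nkx2-1 at 2.37 (0 to 0.803), Control replicate 1 for Tcf7l2 at 13.4 (8.17 to 10.0) and Control replicate 7 for Eif3j1 at 22.1 (2.14 to 3.41).

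With c-MSST, Control+c-MSST replicate 1 stood apart for Zfp771 at 9.48 (11.9 to 12.3), Nts at 5.98 (0.117 to 1.17), Gbx1 at 0.545 (0.0584 to 0.137), Slc17a6 at 27.6 (9.72 to 12.3) and Slc1a2 at 5590 (4200 to 4540). Control+c-MSST replicate 7 did for Cnot6l at 61.0 (27.6 to 35.2) and Hba-a1 at 69.6 (0 to 0.0274), and replicate 2 for Pde7a at 47.3 (12.0 to 12.5), Agrp at 1.74 (1.01 to 1.21) and Hbb-bs at 91.4 (2.63 to 3.75). SCZ+c-MSST replicate 4 was apart for Pde7a at 26.3 (12.0 to 14.1) and Cramp1l at 86.0 (69.4 to 70.1), and SCZ+c-MSST replicate 3 for Kl at 2.98 (4.41 to 4.50) and Reln at 282 (210 to 220). SCZ+c-MSST replicate 5 was apart for Eif3j1 at 1.84 (2.07 to 2.11), Tbr1 at 238 (204 to 209), Avp at 0.0533 (0 in the others), Aldoc at 482 (593 to 613) and Hba-a1 at 182 (0 to 0.0299). Haemoglobin genes have near-identical copies, so their counts are uncertain.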

How the results depend on the processing

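Against the 3 genes that passed between Zic1-high and Zic1-low libraries, DESeq2 called 52 (all 3 among them), limma voom 1, the Control libraries alone 0 and the fit without Control replicates 2 and 3 (chosen after seeing the data) 7. Leaving out 1 library at a time gave 1 to 5, and Prkcd was called in 10 of 10 such fits, Zic4 and Col6a3 in 2 of 10 each, without Control replicate 3 or 4. With 1 library left out, log2 fold changes ran from 1.45 to 1.64 for Prkcd, 1.505 to 1.71 for Zic4 and 1.26 to 1.53 for Col6a3. Over all alternatives, coefficients ran from 0.90 to 1.64 for Prkcd, 0.53 to 1.71 for Zic4 and 0.54 to 1.53 for Col6a3. Those wider ranges mix scales, since they include a slope per doubling of Zic1 and fits on log2 of FPKM plus 1. For the slope on Zic1 with c-MSST, DESeq2 called 82 genes, no filter on low counts 2 and leaving out 1 library 0 to 1. For SCZ against Control with the Zic1 term, DESeq2 called 35, a continuous Zic1 term 0, the fit without Control replicates 2 and 3 0 and leaving out 1 library 0 to 1. The cause was not tested.

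The replicate numbers did not pair the libraries (correlations of deviations from -0.0364 to 0.0284 over 4 numbers), and with the replicate block 0 genes passed in the Zic1 comparison and 0 in SCZ against Control. The class follows the number in 3 of the 4 shared numbers, with both libraries in the same class. No block fit was made for the slope, which left no residual degrees of freedom. Where a library had 0 counts of a gene, a level of up to 3 counts could not be seen.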

Other observations

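Sp8, a zinc-finger factor of olfactory interneuron lineages, had 2.62 to 6.13 CPM in Zic1-high and 1.43 to 2.81 CPM in Zic1-low. Gabrq, the theta subunit of the GABA-A receptor, had 0.659 to 8.76 CPM in Zic1-high and 0.547 to 3.79 CPM in Zic1-low, which overlap.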
